A study of Mus musculus with 10 samples.

Results

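Semaphorins, ephrins, Slits and netrins are 4 groups of guidance ligands, and plexins, neuropilins, Eph receptors, Robos and Unc5 proteins are receptors for them. Genes of these families were picked by symbol from the deposited expression table, and 66 of its 18725 genes matched. They comprise 19 semaphorins, 9 plexins, 2 neuropilins, 8 ephrins, 14 Eph receptors, 3 Slits, 3 Robos, 4 netrins and 4 Unc5 receptors. The rule reads only the symbols, and 64 of the 66 had enough counts to be tested.

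The series compared the outer sulcus of the cochlea, dissected with the spiral ligament under it, between hypothyroid and euthyroid C57BL/6J mice at postnatal day 10. Hypothyroid litters came from dams that drank water with methimazole (0.05%), sodium perchlorate monohydrate (1.0%) and sucrose (5.0%), beginning on embryonic day 17 and ending on day 10 after birth, and euthyroid litters from dams given vehicle over the same days. Methimazole blocks hormone synthesis and perchlorate blocks iodide uptake in the thyroid. Each group had 5 libraries. The agents reached the pups through the dam, and litters are not named, so litter and treatment cannot be told apart. The labels do not say that each library is a separate animal. The p-values therefore set the group difference only against the spread of these libraries, and part of that spread may be technical. The extraction text of the labels speaks of cartilage of the femoral head at an age later than day 10. The age was taken from the other labels, and the values here do not bear on it. As to the tissue, the inner ear gene Otor stood at 5479 ± 258 CPM in euthyroid and 6060 ± 797 CPM in hypothyroid libraries (read counts scaled to the library size, CPM, SD, n = 5 each). Cartilage genes were abundant too, with Col2a1, which the inner ear also expresses, at 32367 ± 2003 and 12485 ± 392 CPM. Epyc, listed here as a marker of the outer sulcus region, stood at 3978 ± 220.1 and 1735 ± 235 CPM. Coch and Otos, genes of spiral ligament fibrocytes, fell from 2868 ± 660 to 261 ± 37.6 CPM and from 3906 ± 766 to 56.1 ± 20.7 CPM. Whether cartilage also expresses any of these genes was not tested, so the tissue was taken from the other labels.

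Guidance proteins steer growing axons, blood vessels and migrating cells by attraction or repulsion. Semaphorins signal through plexins, and the secreted class 3 semaphorins mostly need a neuropilin as co-receptor. Ephrins and Eph receptors both sit on cell membranes, so they signal between touching cells and in both directions. Slits act on Robos, and netrins act on Dcc, neogenin and Unc5 receptors. In the cochlea these families are known for guiding the neurites of spiral ganglion neurons, and several members also shape blood vessels and epithelial boundaries.

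Library totals lay between 19298145 and 20063961 estimated counts, and the lowest correlation between libraries of a group (log2 CPM, taken across genes) was 0.986. Together the 66 genes took 0.317% to 0.348% of all counts in euthyroid and 0.378% to 0.421% in hypothyroid libraries. After composition scaling with TMM factors, which differ between the groups, their summed level was 3443 to 3776 CPM and 3389 to 3811 CPM, and the groups overlapped. The median log2 fold change of all tested genes was 0.04 with TMM, 0.15 with upper quartile factors and 0.30 with library sizes alone, so the direction of a change smaller than that shift is not fixed.

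Most members differed between the groups, as did most genes of the tissue. Of the 64 tested, 34 rose and 17 fell in the hypothyroid libraries and 13 did not pass (edgeR's quasi-likelihood test, adjusted p under 0.05). Over all 14862 genes tested, 71.8% passed, 37.7% upward and 34.1% downward. Among the members 53.1% rose and 26.6% fell. With library sizes alone, 43 members rose and 9 fell, while 74.7% of all called genes were then higher instead of 52.5%. The 2 groups did not overlap in 41 members (64.1%), against 57.9% of all genes. Rises of at least 2-fold were seen in 14 members (21.9%), where the share of all genes was 9.25%, and falls of that size in 2 members (3.12%), where it was 7.91%. The count of 2 became 4 without euthyroid replicate 4, without hypothyroid replicate 1, 4 or 5, and in DESeq2. Those fits tested 65 or 66 members. It was 1 with library sizes alone and in limma on FPKM. Rises of that size numbered 17 with library sizes alone, where the share of all genes was 14.3%. In limma on FPKM with a pseudocount of 1 they numbered 11, where it was 5.43%. Plxnd1, at -0.99 on the log2 scale, lies at that limit. The median log2 fold change was 0.33 over the members. These shares describe the list and carry no test. The counts of single systems and families below are to be read beside the same shares of all genes and carry no test either.

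**Figure D1:**
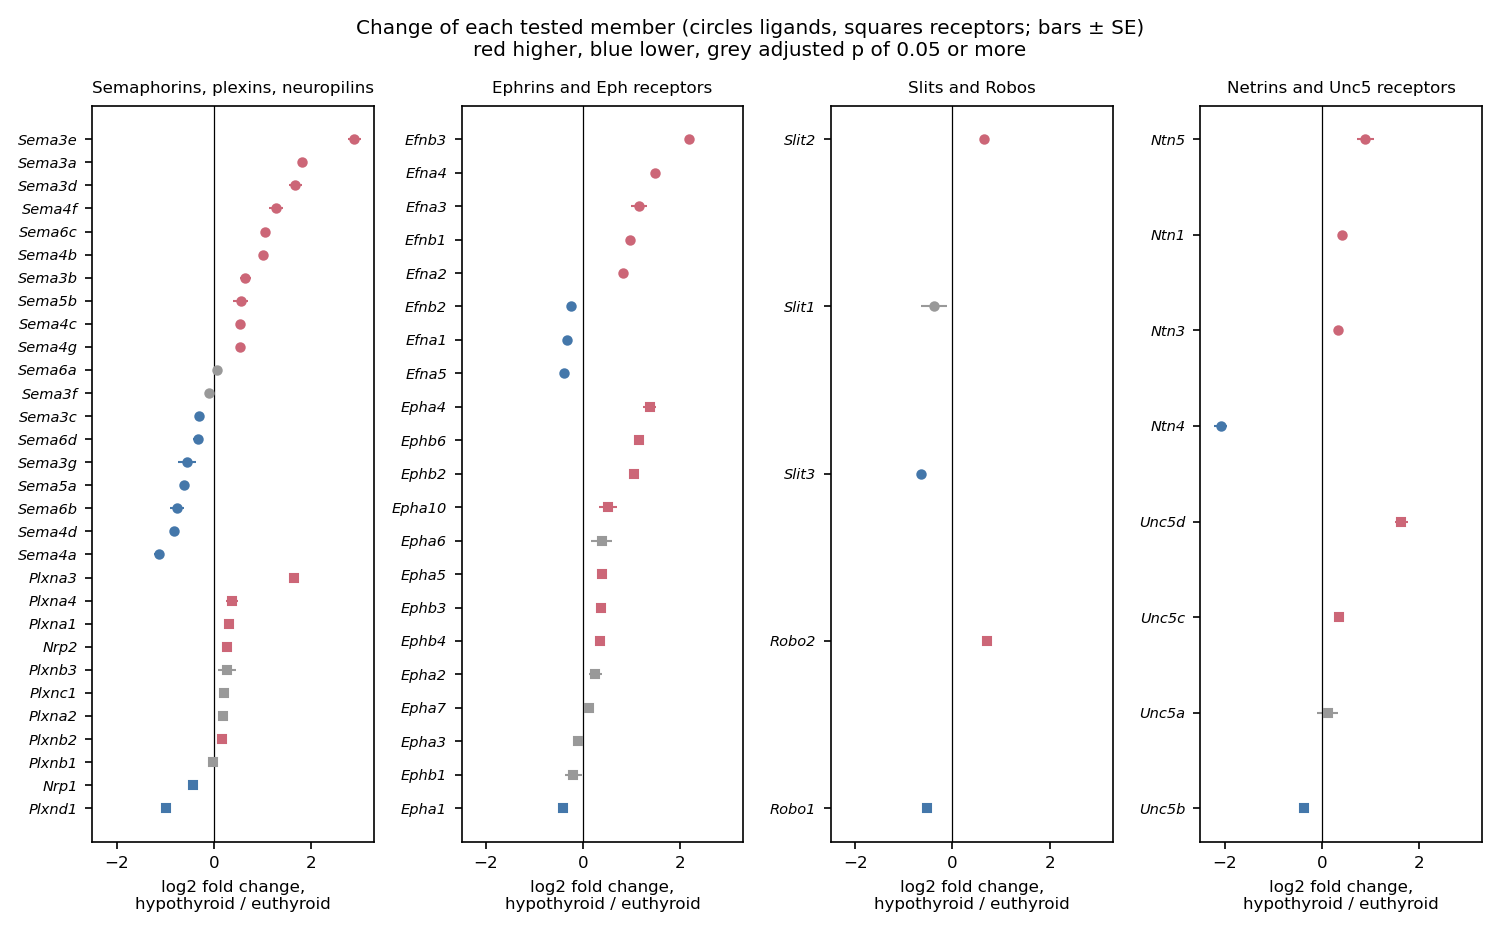
Log2 fold change (x axis, hypothyroid over euthyroid, bars ± SE) of each of the 64 tested genes, in 4 panels by ligand and receptor system, with ligands as circles and receptors as squares. The values run from -2.08 in Ntn4 to 2.89 in Sema3e, and each system holds red (higher) and blue (lower) genes.

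**Figure D2:**
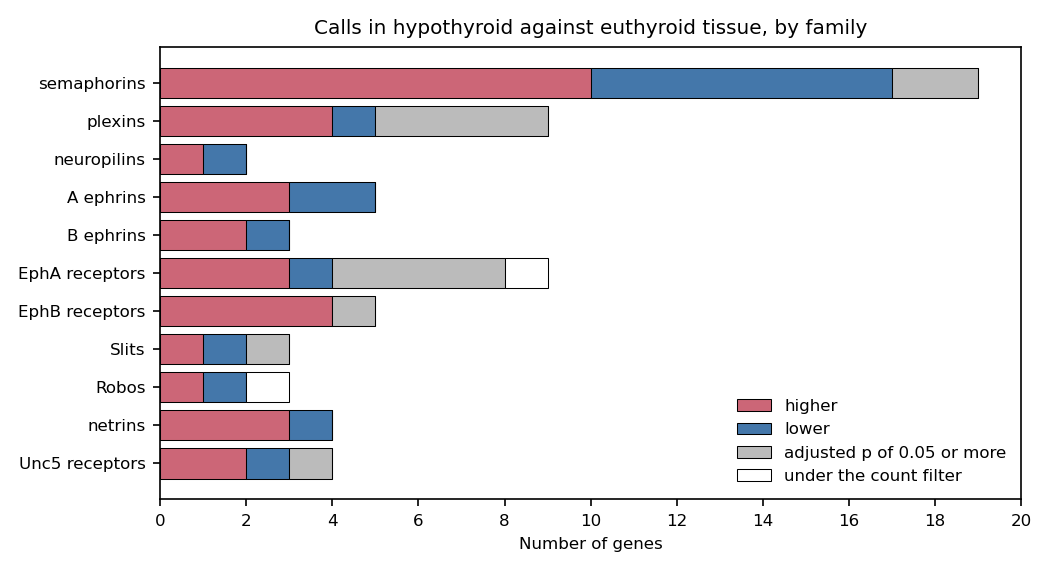
Number of genes (x axis) in each family that were higher, lower, not past the threshold or under the count filter. Of the 19 semaphorins 10 were higher and 7 lower, and of the 5 EphB receptors 4 were higher and 0 lower. Over all genes tested 37.7% were higher and 34.1% lower.

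Among the semaphorins, 3 secreted class 3 genes that lie side by side on chromosome 5 rose most: Sema3e 7.40-fold, Sema3a 3.50-fold and Sema3d 3.2-fold. Sema3e, whose product binds plexin D1 directly without a neuropilin, had 3.03, 2.48, 2.43, 2.2 and 2.16 CPM in the euthyroid libraries and 17.4, 19.7, 16.2, 15.9 and 22.0 CPM in the hypothyroid ones. The lowest hypothyroid library was thus above every euthyroid one (log2 fold change 2.89, SE 0.13, edgeR adjusted p = 2.79e-11). Sema3a, the gene of a repellent of axons that acts through neuropilin 1 and A plexins, had 5.13, 5.06, 5.25, 4.68 and 4.77 CPM against 16.9, 18.3, 17.4, 15.7 and 18.8 CPM. Its libraries were tightly grouped on both sides (log2 fold change 1.81, SE 0.08, edgeR adjusted p = 4.76e-11). Sema3d, a further secreted semaphorin, had 22.8, 22.6, 17.6, 20.5 and 28.6 CPM against 80.6, 59.8, 68.3, 62.4 and 88.3 CPM. It varied more among libraries than the other 2, but the groups stayed apart (log2 fold change 1.68, SE 0.14, edgeR adjusted p = 6.99e-07).

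The other class 3 genes moved less and in both directions. Sema3b rose (log2 fold change 0.65), Sema3c and Sema3g fell (-0.31 and -0.55), and Sema3f had a value of -0.09 (edgeR adjusted p = 0.0802). The call of Sema3f depended on the processing: higher with library sizes alone (0.17, edgeR adjusted p = 0.00404) and lower in DESeq2 (-0.12, its adjusted p = 0.0335). Sema3c was at 37.4 ± 2.65 and 30.1 ± 2.49 CPM, and its call was lost with library sizes alone (log2 fold change -0.05), as was that of Sema3g (-0.28). Sema3f, whose product acts through neuropilin 2, was the class 3 gene with the highest level per length, at 25.8 ± 1.28 FPKM in euthyroid and 29.4 ± 1.01 FPKM in hypothyroid libraries (fragments scaled to gene length and library size, the authors' values). Within each library Sema3f took 60.4% ± 0.722 of the summed class 3 FPKM in the euthyroid and 47.3% ± 1.81 in the hypothyroid group (SD, n = 5 each). The 3 strongly changed neighbours together took 10.1% ± 1.07 and 29.6% ± 2.53. Such shares within a library do not depend on the scaling between libraries.

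The stretches before the transcription starts of the 3 neighbouring semaphorin genes are shown because these genes rose together, and those of Plxnd1 and Ntn4 because they are a receptor and a ligand gene of high level per length that fell. Each line gives the 250 bases before the start that the RefSeq promoter table lists for the gene, which need not be the first base of the gene's whole span, 5′ to 3′ on the gene's strand, build GRCm38.p6, with the hexamer AGGTCA or its reverse complement TGACCT in capitals. AGGTCA is the core of binding sites of thyroid hormone receptors and many other nuclear receptors.
Sema3d, chr5:12382916-12383165, plus strand: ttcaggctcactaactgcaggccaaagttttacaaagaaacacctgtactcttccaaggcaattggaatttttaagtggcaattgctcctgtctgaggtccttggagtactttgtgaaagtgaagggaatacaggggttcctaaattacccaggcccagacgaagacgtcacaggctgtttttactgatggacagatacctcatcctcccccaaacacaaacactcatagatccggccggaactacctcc
Sema3a, chr5:13396534-13396783, plus strand: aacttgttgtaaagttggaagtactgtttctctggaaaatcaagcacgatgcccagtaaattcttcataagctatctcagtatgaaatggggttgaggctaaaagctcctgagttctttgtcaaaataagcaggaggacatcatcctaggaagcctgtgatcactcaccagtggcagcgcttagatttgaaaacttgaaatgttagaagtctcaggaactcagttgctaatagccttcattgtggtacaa
Sema3e, chr5:14025026-14025275, plus strand: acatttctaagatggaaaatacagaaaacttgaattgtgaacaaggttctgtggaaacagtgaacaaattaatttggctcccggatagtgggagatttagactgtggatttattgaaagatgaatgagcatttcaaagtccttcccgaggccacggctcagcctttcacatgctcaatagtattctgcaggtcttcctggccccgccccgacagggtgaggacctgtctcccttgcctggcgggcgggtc
Plxnd1, chr6:115995006-115995255, minus strand: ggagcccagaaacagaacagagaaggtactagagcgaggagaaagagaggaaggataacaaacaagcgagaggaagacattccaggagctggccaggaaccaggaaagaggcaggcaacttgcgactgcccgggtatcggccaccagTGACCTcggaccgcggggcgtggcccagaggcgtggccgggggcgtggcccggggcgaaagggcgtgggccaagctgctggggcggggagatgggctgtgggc
Ntn4, chr10:93640799-93641048, plus strand: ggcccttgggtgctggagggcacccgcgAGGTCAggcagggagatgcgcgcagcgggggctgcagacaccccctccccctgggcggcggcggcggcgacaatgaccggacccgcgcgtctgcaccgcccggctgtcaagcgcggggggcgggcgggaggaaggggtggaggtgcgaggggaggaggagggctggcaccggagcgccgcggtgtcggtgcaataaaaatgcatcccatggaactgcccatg
None of these windows overlaps an exon of the GENCODE annotation. Those of Sema3a and Ntn4 lie within an intron of another GENCODE transcript of the same gene. By the gene spans that RefSeq lists, the windows of Sema3a and Plxnd1 lie wholly inside the gene and that of Sema3d overlaps its first bases. The start used for Sema3d lies upstream of every GENCODE start of the gene and was not matched to a transcript start, so its window may not be next to the start in use. The hexamer occurs in 1 copy in the window of Plxnd1 and in 1 copy in that of Ntn4. The 3 semaphorin windows hold 0 copies, which says only that these letters are not in these windows. Guanine and cytosine made up 46.8% of the window of Sema3d, 40.8% of that of Sema3a and 48.0% of that of Sema3e, with 4, 2 and 7 CpG pairs. The windows of Plxnd1 and Ntn4 had 64.8% and 73.2%, with 16 and 26 CpG pairs. The median over the 57 members with a window was 64.8% and 16 CpG pairs, and over all 27025 genes with a window 52.0% and 6. At least 1 hexamer on either strand was found in 8 of the 57 member windows (14.0%) and in 13.8% of all windows of this length. Of the 17 members that fell, 5 held it (Plxnd1, Ntn4, Nrp1, Sema4d and Sema5a), and of the 28 that rose and had a window, 2 did (Sema4b and Ntn5). Efnb2 and Sema6d, ligand genes of higher level per length than Ntn4 that fell as reported, held 0 copies. The windows printed thus do not show how often the hexamer occurs in members that fell or rose. These are counts of letters and carry no test.

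Class 4 semaphorins, which are membrane proteins, were split, with 4 of 6 higher and 2 lower. Sema4a, known from immune cells and the retina, fell from 17.4, 15, 16.8, 16.8 and 14.4 CPM to 6.41, 8.37, 7.67, 6.42 and 7.92 CPM (log2 fold change -1.13, SE 0.10, edgeR adjusted p = 5.54e-08). It was the only semaphorin that fell at least 2-fold as reported. Sema4d, whose product signals through plexin B1 and is made by osteoclasts and lymphocytes, fell 1.77-fold from 65.8, 64.9, 69.6, 65.2 and 57.7 CPM to 32.9, 36.3, 39.5, 37.9 and 36.3 CPM. Neither gene's groups overlapped. In the same libraries all 5 tested of 7 osteoclast markers fell, where 34.1% of all genes did. The summed level of the 7 was 163 to 239 CPM in euthyroid and 84.1 to 108 CPM in hypothyroid libraries. The part of osteoclasts in the fall of Sema4d was not tested. In bulk tissue, fewer cells of a type and less RNA per cell cannot be told apart.

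In the other direction, Sema4f rose from 2.11, 1.78, 1.86, 2.2 and 2.55 CPM to 5.57, 4.85, 5.69, 4.25 and 5.14 CPM (2.42-fold). Sema4b rose from 21.6, 18.9, 20.1, 17.7 and 22.3 CPM to 40.0, 44.7, 43.7, 38.1 and 37.5 CPM (2.03-fold). In both genes every hypothyroid library was above every euthyroid one. Sema4c and Sema4g rose by less (log2 fold changes 0.54 and 0.53).

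Class 5 and class 6 semaphorins are also membrane proteins, with thrombospondin repeats in class 5. Sema5a fell 1.54-fold from 92.8 ± 9.36 to 60.2 ± 5.84 CPM, while the scarce Sema5b rose (log2 fold change 0.55). Sema6d, a ligand of plexin A1, was the semaphorin with the highest level per length, at 42.3 ± 2.70 and 40.6 ± 6.22 FPKM. Its CPM were 280, 265, 315, 269 and 282 against 272, 199.9, 213, 193 and 247. Here the groups overlapped through 1 hypothyroid library at 272 CPM, and the fall (log2 fold change -0.33, edgeR adjusted p = 0.00425) was lost with library sizes alone (-0.06). Sema6c rose 2.06-fold from 26.5, 23.2, 22.6, 20 and 21.8 CPM to 51.7, 46.3, 46.2, 44.9 and 46.7 CPM, without overlap. Sema6b fell (log2 fold change -0.76), and Sema6a, at 80.4 ± 2.59 and 84.6 ± 5.99 CPM, did not pass (0.07, edgeR adjusted p = 0.211). With library sizes alone Sema6a was called higher (0.34, edgeR adjusted p = 2.58e-05).

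Of the 11 semaphorin receptors, 5 rose, 2 fell and 4 did not pass, where 37.7% of all genes rose and 34.1% fell. Plxnd1, the receptor gene for Sema3e and a regulator of vessel growth, had the highest level per length of all 66 genes in euthyroid tissue (55.5 ± 4.30 FPKM) and 33.6 ± 2.37 FPKM in hypothyroid tissue. Plxnd1 fell 1.99-fold, from 437, 382, 469, 396 and 405 CPM to 217, 187, 212, 216 and 218 CPM (log2 fold change -0.99, SE 0.06, edgeR adjusted p = 1.40e-09). Ligand and receptor thus moved in opposite directions, with Sema3e 7.40-fold higher. Nrp1, a co-receptor for class 3 semaphorins and vascular endothelial growth factor, fell 1.34-fold, from 267, 219, 279, 250 and 262 CPM to 197, 186, 187, 178 and 205 CPM. Nrp2 rose slightly (log2 fold change 0.28, edgeR adjusted p = 0.0268), with overlap of the groups, and lost its call without any of 6 libraries taken singly: euthyroid replicates 2, 3 and 4 (adjusted p = 0.0758, 0.0704 and 0.0679) and hypothyroid replicates 1, 3 and 5 (0.0648, 0.0528 and 0.0634).

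Most endothelial and mural cell markers fell, as Plxnd1 and Nrp1 did, where 34.1% of all genes fell. The median of 10 endothelial markers was -0.50 on the log2 scale (8 lower, 1 higher, 1 not past the threshold), and their summed level went from 873 to 1108 CPM in euthyroid to between 667 and 776 CPM in hypothyroid libraries. Of 8 mural cell markers 6 fell and 2 did not pass, with 1374 to 1721 and 711 to 785 CPM. Single endothelial markers ranged from -1.40 in Flt1 and -0.81 in Tie1 to 0.40 in Erg, with -0.26 in Pecam1 and -0.23 in Cdh5, which are within the shift between scalings. The part of vessel cells in the falls of Plxnd1 and Nrp1 was not tested.

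Among the other plexins, Plxna3, a receptor partner of neuropilin 2, rose 3.12-fold from 16.7, 17.0, 15.1, 14.1 and 14.4 CPM to 53.5, 43.9, 48.5, 44.6 and 50.7 CPM (log2 fold change 1.64, SE 0.07, edgeR adjusted p = 4.03e-11). No hypothyroid library came near the euthyroid range. Plxna1 and Plxna4 rose by less (log2 fold changes 0.32 and 0.38), and Plxnb2 from 245 ± 12.2 to 275 ± 9.75 CPM (0.17). The remaining 4 did not pass: Plxna2 (0.19), Plxnc1 (0.21), Plxnb3 (0.27) and Plxnb1 (-0.01), the receptor gene for Sema4d. With library sizes alone all 4 were called higher, so their calls depend on the scaling. The values were then 0.46, 0.48, 0.54 and 0.25 (edgeR adjusted p = 0.000283, 0.000398, 0.0162 and 0.00077). Within libraries Plxnd1 took 44.5% ± 1.77 of the summed plexin FPKM in euthyroid and 25.6% ± 1.54 in hypothyroid tissue, and Plxnb2 28.2% ± 1.25 and 36.0% ± 1.11. In hypothyroid tissue Plxnb2, at 47.2 ± 1.82 FPKM, was the plexin with the highest level per length.

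In the ephrin system, 12 of 21 tested genes rose, 4 fell and 5 did not pass, where 37.7% of all genes rose and 34.1% fell. Among the tested genes, the called changes of at least 2-fold were all upward, 3 in ligands and 3 in receptors. Epha8, under the count filter, went the other way, with 78 counts in euthyroid and 13 in hypothyroid libraries. Without the count filter 22 genes were tested and 5 were called lower. The summed level of the 22 genes was 886 to 967 CPM in euthyroid and 1012 to 1183 CPM in hypothyroid libraries. With library sizes alone 0 of them were called lower.

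Of the B ephrins, which are transmembrane ligands, Efnb3 rose most. Its level went from 12.6, 11.6, 9.37, 8.90 and 11.8 CPM to 49.5, 47.6, 50.3, 48.6 and 49.7 CPM (4.53-fold, or 2.18 on the log2 scale with SE 0.08, adjusted p = 6.65e-12 by edgeR). Its hypothyroid libraries lay within a narrow band. Efnb1 rose 1.97-fold from 29.6, 24.7, 25.8, 25.5 and 29.3 CPM to 60.9, 47.9, 57.1, 46.4 and 52.8 CPM, without overlap. Efnb2, known from arteries, was the ephrin with the highest level per length, at 51.4 ± 4.22 and 52.0 ± 6.61 FPKM. Its CPM were 276, 292, 253, 255 and 260 against 259, 202, 212, 203 and 251, so 1 hypothyroid library reached into the euthyroid range. The small fall (log2 fold change -0.25, edgeR adjusted p = 0.00806) had a value of 0.02 with library sizes alone (adjusted p = 0.837). Efnb2 took 45.6% ± 2.40 of the summed ephrin FPKM in euthyroid and 33.9% ± 2.75 in hypothyroid tissue, and Efnb3 2.76% ± 0.338 and 11.1% ± 0.403.

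A ephrins are attached to the membrane by a lipid anchor. Efna4 rose from 9.08, 7.76, 8.18, 7.10 and 8.32 CPM to 22.2, 22.8, 23.2, 22.7 and 20.9 CPM (2.76-fold, or 1.47 on the log2 scale with SE 0.08, adjusted p = 1.94e-10 by edgeR). Efna3 rose from 2.11, 1.19, 1.81, 1.69 and 2.16 CPM to 4.68, 3.66, 3.47, 4.34 and 3.68 CPM (2.21-fold). In neither gene did the groups overlap. Efna2 also rose (log2 fold change 0.83). Efna1 fell 1.26-fold, from 47.4, 40.4, 47.5, 44.1 and 46.0 CPM to 35.4, 35.8, 38.4, 34.8 and 34.0 CPM, and Efna5 fell (log2 fold change -0.40). Neither fall passed with library sizes alone (-0.07 for Efna1 and -0.13 for Efna5). Efna1, Efna3 and Efna4 are neighbours on chromosome 3, with gaps of 33 kb and 10 kb between the RefSeq genes, so 2 of the 3 rose beside 1 that fell as reported.

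Of the 14 Eph receptor tyrosine kinase genes, 13 were tested, and 7 rose, 1 fell and 5 did not pass. Epha4, which binds ephrins of both classes, rose from 33.0, 30.6, 29.1, 29.6 and 29.4 CPM to 101, 65.6, 87.8, 58.1 and 79.2 CPM (2.58-fold, or 1.37 on the log2 scale with SE 0.13, adjusted p = 2.91e-06 by edgeR). Its hypothyroid libraries varied from 58.1 to 101 CPM, a wider range than the euthyroid ones, and lay above all of these. Ephb6, whose product lacks kinase activity, rose from 20.6, 16.9, 17.7, 15.3 and 18.6 CPM to 40.7, 38, 38.8, 41.4 and 39.0 CPM (2.22-fold). Ephb2, a receptor for B ephrins, rose from 27.1, 25.0, 19.5, 20.9 and 24.1 CPM to 54.4, 42.2, 49.4, 46.7 and 48.0 CPM (2.06-fold). The groups of both genes were apart.

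Ephb4, the receptor gene for ephrin B2 known from veins, had the highest level per length among Eph receptors, at 29.8 ± 2.46 and 45.7 ± 2.18 FPKM. Its CPM were 147, 149, 146, 130.4 and 129 against 186, 169, 191, 171 and 179, a small rise without overlap (log2 fold change 0.35, SE 0.05, edgeR adjusted p = 3.06e-05). Ephb3, Epha5 and Epha10 also rose (0.37, 0.38 and 0.51). The call of Epha10, at only 1.17 ± 0.224 and 1.67 ± 0.261 CPM, was lost without euthyroid replicate 1 (adjusted p = 0.068) or 2 (0.0814), without hypothyroid replicate 3 (0.0695) and in DESeq2 (0.0829). Epha1 fell (-0.41), but not with library sizes alone (-0.15, adjusted p = 0.0609). Epha7, an abundant member at 118 ± 13.6 and 128 ± 10.5 CPM, did not pass (0.12), nor did Epha2 (0.25), Epha3 (-0.10), Epha6 (0.38) and Ephb1 (-0.20). With library sizes alone Epha7, Epha2 and Epha6 were called higher (0.38, 0.52 and 0.64, edgeR adjusted p = 0.000638, 0.00189 and 0.012). Epha3 and Ephb1 did not pass there either (0.0831 and 0.718). Epha8 was under the count filter, with 78 counts in all euthyroid and 13 in all hypothyroid libraries, a ratio of 0.142 (95% interval from the exact binomial distribution 0.0726 to 0.258, counting error only).

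The Slit and Robo genes changed by less than 2-fold, and each family held a gene that rose and a gene that fell. Slit2, the Slit with the highest level per length (12.3 ± 0.958 and 23.2 ± 2.54 FPKM), rose from 133, 119, 138, 129.9 and 150.3 CPM to 211, 217, 209, 174 and 240.4 CPM (1.57-fold, or 0.65 on the log2 scale with SE 0.08, adjusted p = 3.77e-06 by edgeR). Slit3 fell 1.55-fold, from 31.6, 29.7, 34.4, 33.0 and 35.3 CPM to 19, 23.3, 18.5, 25.6 and 19.2 CPM. Neither overlapped between groups. Slit1 was scarce, with 100 and 90 counts over the groups, and did not pass (log2 fold change -0.38, edgeR adjusted p = 0.221).

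Robo1 and Robo2, receptors for Slits, are neighbours on chromosome 16 with 844 kb between them and moved in opposite directions. Robo1 fell 1.44-fold, from 129, 104, 123, 133 and 111 CPM to 85.4, 82.4, 84.5, 73.3 and 90.7 CPM (log2 fold change -0.53, SE 0.07, edgeR adjusted p = 9.44e-06). Robo2 rose 1.64-fold, from 23.7, 21.5, 17.2, 18.5 and 21.4 CPM to 36.2, 32.3, 37.8, 28.6 and 33.4 CPM (log2 fold change 0.72). Robo1 took 73.7% ± 1.36 of the summed Robo FPKM in hypothyroid tissue, after 86.9% ± 2.04 in euthyroid tissue. Robo3 was under the count filter (13 and 8 counts over the groups).

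The largest fall of any tested member was in the netrin family. Ntn4 encodes a secreted netrin that binds laminins in basement membranes and affects their assembly. It fell 4.22-fold, from 106, 92.3, 75.7, 101 and 94.1 CPM to 16.9, 26.6, 21.2, 20 and 26.3 CPM (log2 fold change -2.08, SE 0.13, edgeR adjusted p = 3.38e-08). Its lowest euthyroid library stood far above its highest hypothyroid one. The 3 other netrin genes rose: Ntn1, the best known axon attractant, and Ntn3 slightly (log2 fold changes 0.42 and 0.33), and the scarce Ntn5 by 0.90. Within libraries Ntn4 took 83.1% ± 1.53 of the summed netrin FPKM in euthyroid and 45.1% ± 5.36 in hypothyroid tissue. In order of FPKM among the 66 genes, Ntn4 went from position 5 to position 27.

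Of the Unc5 receptor genes, whose products mediate repulsion by netrins, 2 rose, 1 fell and 1 did not pass. Unc5d rose from 4.05, 3.99, 3.50, 4.68 and 4.66 CPM to 13.0, 13.0, 16.0, 9.97 and 13.2 CPM (3.12-fold, or 1.64 on the log2 scale with SE 0.13, adjusted p = 2.04e-08 by edgeR), without overlap. Unc5b, known from vessel sprouts, had the highest level per length of the 4 (9.08 ± 0.963 and 8.41 ± 0.867 FPKM). Its CPM of 65.8, 50.3, 58.0, 53.8 and 61.0 against 51.2, 39.3, 46.6, 42.0 and 43.8 overlapped, and its fall (log2 fold change -0.37) was lost with library sizes alone (-0.11). Unc5c rose (0.36), and Unc5a, at about 1 CPM, did not pass (0.12).

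**Figure D3:**
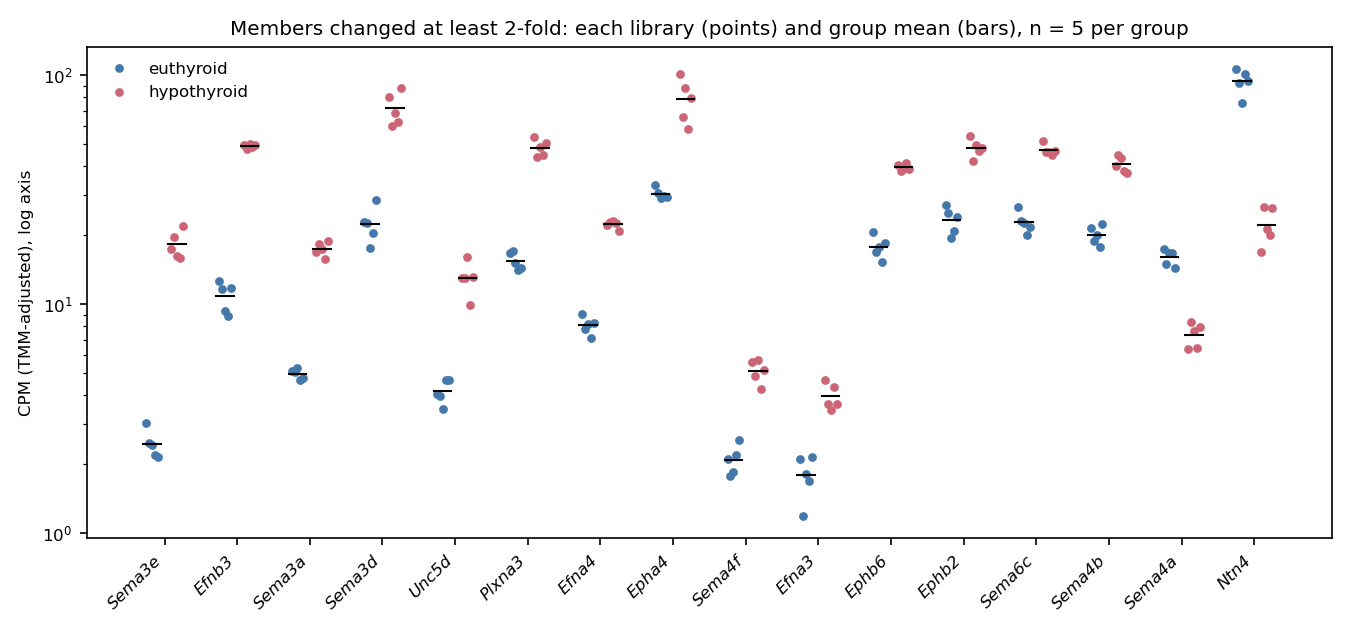
CPM (log axis, TMM-adjusted) in each of the 5 euthyroid and 5 hypothyroid libraries for the 16 members that changed at least 2-fold without overlap, ordered by change, with bars at the group means. The 14 genes from Sema3e to Sema4b are higher in every hypothyroid library, and Sema4a and Ntn4 are lower in every one.

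Levels per length, which can be compared between genes, spanned a wide range. In euthyroid tissue Plxnd1 led with 55.5 FPKM, followed by Efnb2 (51.4), Sema6d (42.3), Nrp1 (39.6), Ntn4 (36.2) and Plxnb2 (35.1). The means of Plxnd1 and Efnb2 lay within the SD of either, and those of Sema6d and Nrp1 within the SD of Nrp1 (3.15). In hypothyroid tissue the order began with Efnb2 (52.0 ± 6.61), Plxnb2 (47.2 ± 1.82), Ephb4 (45.7 ± 2.18) and Sema6d (40.6 ± 6.22), and each differed from the next by no more than the larger SD of the pair. Among the genes with large rises, Sema3e went from 0.330 ± 0.0495 to 2.93 ± 0.416 FPKM, Sema3a from 0.814 ± 0.0586 to 3.37 ± 0.220 FPKM and Unc5d from 0.424 ± 0.0472 to 1.58 ± 0.231 FPKM. Sema3d, Plxna3 and Efnb3 reached higher levels of 12.2 ± 2.12, 8.61 ± 0.783 and 17.0 ± 0.391 FPKM.

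**Figure D4:**
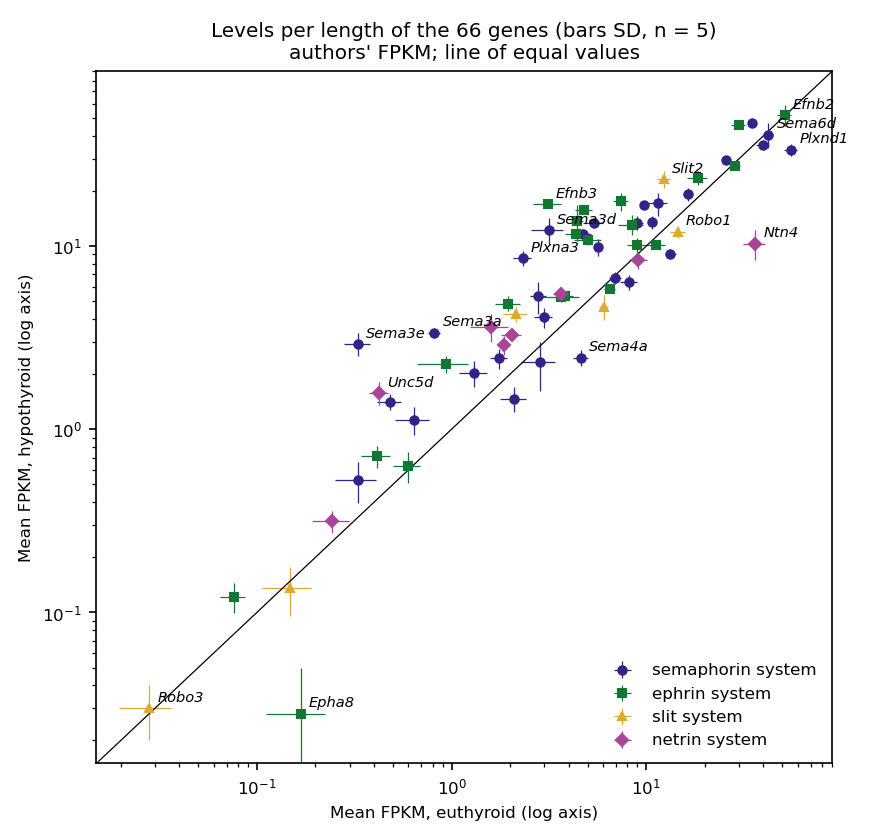
Mean FPKM in hypothyroid (y axis) against euthyroid tissue (x axis) for all 66 genes, both axes logarithmic, with SD bars over 5 libraries and a line of equal values. The FPKM are not scaled with TMM factors. Sema3e, Sema3a and Efnb3 lie furthest above the line, and Ntn4 lies furthest below it among genes over 1 FPKM.

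**Figure D5:**
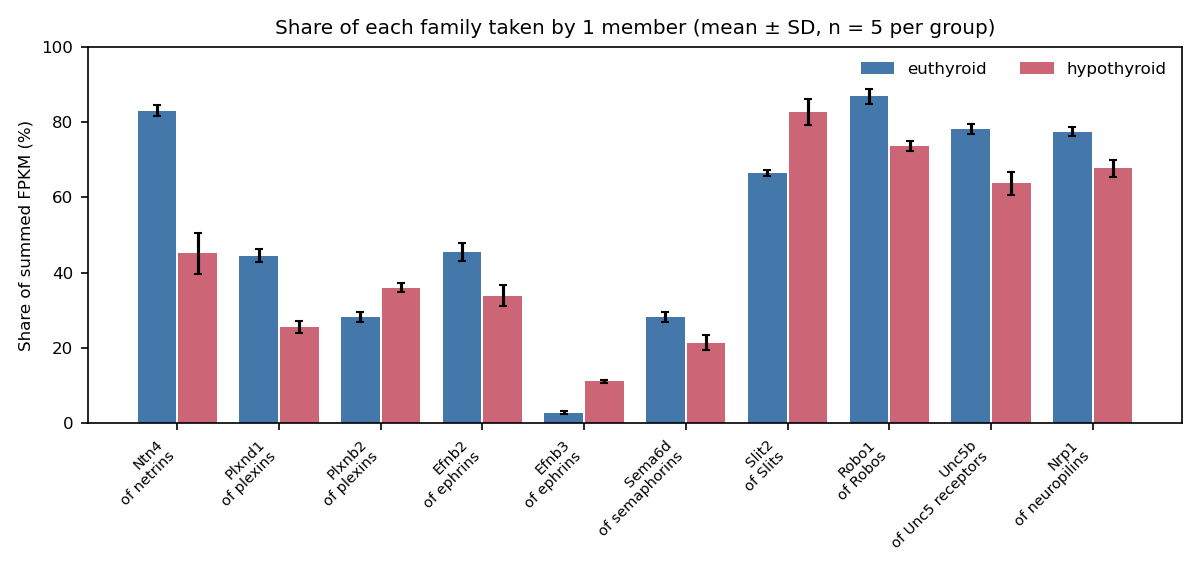
Share of the summed FPKM of a family (y axis, percent, mean ± SD over 5 libraries) taken by 1 member in each group. Ntn4 falls from 83.1% to 45.1% of the netrins and Plxnd1 from 44.5% to 25.6% of the plexins, while Slit2 goes from 66.5% to 82.7% of the Slits.

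Neighbouring members did not always move together. Sema3d, Sema3a and Sema3e follow each other on chromosome 5 of GRCm38.p6, from 12383161 to 12588953, from 13124822 to 13603485 and from 14025276 to 14256689, and all 3 rose. Sema3c, on the same chromosome from 17574816 to 17730268, did not rise. Sema3b and Sema3f lie 72 kb apart on chromosome 9, and Sema3b rose while Sema3f did not pass. Plxna3 lies on the X chromosome 556 kb from Plxnb3, which did not pass. Ntn4 spans chromosome 10 from 93641049 to 93745972, Plxnd1 chromosome 6 from 115954811 to 115995339, and Efnb3 chromosome 11 from 69554092 to 69561150.

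Other genes of these pathways, from lists outside the symbol rule, moved in both directions. Over all genes tested 71.8% passed, 37.7% upward and 34.1% downward, with a median of 0.04 on the log2 scale. The counts of these lists stand beside those shares and carry no test. Of 27 tested guidance receptors, co-receptors and cofactors, 10 rose, 12 fell and 5 did not pass, with a median of -0.03 on the log2 scale. The smallest adjusted p values, which need not mark the largest changes, were those of Draxin, Flt1 and Ptk7. Draxin, a secreted netrin antagonist, rose from 10.5 ± 0.610 to 36.0 ± 2.84 CPM (3.43-fold). Flt1, a growth factor receptor of vessels that is also among the endothelial markers, fell 2.64-fold, and Ptk7 rose 1.87-fold. The netrin receptor gene Neo1, at 348 and 334 CPM, did not pass (edgeR adjusted p = 0.431), while Dcc rose from a low level (1.81 to 3.11 CPM). Neo1 and Dcc were picked as the best known netrin receptors after their values were seen.

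Of 61 tested cytoplasmic effectors, 19 rose, 28 fell and 14 did not pass (median -0.12), where 37.7% of all genes rose and 34.1% fell. Grip1, a scaffold that binds ephrin B tails, rose 2.29-fold, Dpysl3, a collapsin response mediator, 2.16-fold from 121 ± 10.1 to 261 ± 10.8 CPM, and Rnd1, a small GTPase that binds plexins, fell 4.25-fold from 11.3 ± 0.868 to 2.66 ± 0.528 CPM. The 12 genes for proteases that shed or process guidance proteins had a median of -0.41, with 9 lower, 2 higher and 1 not past the threshold. Adam17, a sheddase, fell 1.99-fold, and the proprotein convertase gene Furin fell 1.91-fold from 435 ± 10.8 to 228 ± 14.9 CPM.

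Marker genes of several cell types also differed between the groups in the same libraries, some lists in a single direction and others in both. Of all genes tested, 37.7% rose and 34.1% fell. All 8 markers of dividing cells rose, from a summed 20.8 to 30.3 CPM in euthyroid to between 67.4 and 109.6 CPM in hypothyroid libraries. All 10 macrophage markers rose (294 to 326 against 463 to 604 CPM), and 9 of 10 osteoblast and osteocyte markers fell (1395 to 2270 against 105 to 181 CPM). Neuronal markers were low and mixed: 3 rose, 3 fell and 4 were under the count filter, with a sum of 153 to 170 and 102 to 127 CPM. Tubb3 fell 17.6-fold from 12.2 ± 2.19 to 0.698 ± 0.969 CPM, Map2 from 130.3 ± 9.26 to 59.4 ± 5.73 CPM and Rbfox3 from 2.17 ± 0.456 to 1.47 ± 0.354 CPM. Syt1 rose from 14.8 ± 2.44 to 48.7 ± 5.24 CPM, Gap43 from 2.03 ± 0.102 to 6.05 ± 1.34 CPM and Nefh from 0.296 ± 0.131 to 0.717 ± 0.248 CPM. The neurofilament gene Nefl had 39 and 9 counts over the groups, Nefm 66 and 29, Snap25 38 and 36 and Stmn2 22 and 118. Of 10 Schwann cell and satellite glia markers 3 rose, 3 fell, 3 did not pass and 1 was under the filter. Of 7 epithelial markers 4 rose and 2 fell. Of 10 root cell and outer sulcus markers 6 fell and 3 rose (8067 to 8817 against 3470 to 4183 CPM), and of 11 fibrocyte markers 7 fell and 3 rose (22886 to 26787 against 13002 to 15670 CPM). Of 8 chondrocyte markers 5 fell and 2 rose (45438 to 51925 against 18384 to 19962 CPM). Of 9 melanocyte markers 6 rose and 3 fell, and of 6 marginal cell markers 2 fell and 4 did not pass. Of 8 hair cell markers 5 fell, 1 rose and 2 were under the count filter. The part of these cell types in the changes of the guidance genes was not tested.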

How the data were processed

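RNA of 5 euthyroid and 5 hypothyroid libraries had been selected with oligo(dT) beads and read as single-end reads of 50 bases, per the labels. Whether strand was kept is not given in the sources used here, so overlapping and antisense genes cannot be told apart. The tools named in the submitters' processing notes are RSEM 1.2.12, Bowtie2 2.2.5 and HISAT2 2.0.4, and the build is GRCm38.p6. The authors deposited expected counts, which RSEM estimates per gene, together with FPKM and TPM values that adjust for gene length. A further 10 columns of scaled counts and 8 of group means were not used.

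Expected counts were rounded, genes with few counts were removed (filterByExpr, minimum count 10) and 14862 of 18725 genes were tested with edgeR 4.0.16 in R 4.3.3 (TMM factors, quasi-likelihood test with robust fit, only group in the model, two-sided, Benjamini-Hochberg adjustment over all genes tested, threshold 0.05). SE was taken as the size of the log2 fold change over the square root of F. CPM use TMM-adjusted library sizes. DESeq2 1.42.0 and limma 3.58.1 on log2(value + 0.1), with a minimum mean of 0.1, served as alternatives. Library pairs within a group differed by more than sampling noise (mean chi-square per gene 5.21 to 15.1), so none was treated as a duplicate. The procedure was also run on simulated counts in which few genes changed, by known folds and equally up and down. Such counts cannot test the scaling between the groups, because most genes of the real data differed.

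Values in every library are given for members with a log2 fold change of at least 1 in size, adjusted p under 0.05, no overlap and at least 1 CPM, and for the most abundant ligand and receptor of each system. Values in every library were added for Sema4d, Nrp1, Efnb1, Efna1, Slit3 and Robo2 after they had been seen. Of each pathway list the 3 genes with the smallest adjusted p are named. 1 gene that this rule picks is not reported here. Members and lists were chosen with earlier results of these data known. Of the 66 members, 66 matched RefSeq by gene ID. Promoter sequences are from RefSeq, GRCm38.p6.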

Additional observations from a re-analysis of the deposited data

Results flagged for a closer look

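Over the 64 tested members, 128 sets of 5 values were searched for a library set apart from the other 4 of its group (gap to the nearest over the whole range above 0.71). Chance sets apart about 1 in 20 sets, and 11 were found. In the euthyroid group these were the high values of replicate 3 for Sema3g (17.8 CPM, next 12.6), Plxnc1 (16.5 CPM, next 13.8) and Plxnb3 (2.26 CPM, next 1.62), the low value of replicate 1 for Sema3b (6.97 CPM, next 8.69) and the low value of replicate 2 for Unc5a (0.646 CPM, next 1.08). In the hypothyroid group they were the low values of replicate 4 for Epha3 (42.3 CPM, next 52.9) and Epha7 (109 CPM, next 129.7), the low value of replicate 2 for Plxnd1 (187 CPM, next 212), the high values of replicate 1 for Sema4g (44.8 CPM, next 37.9) and Sema6c (51.7 CPM, next 46.7), and the high value of replicate 5 for Plxna4 (29.8 CPM, next 22.8). Epha7 passed the test without hypothyroid replicate 4 (adjusted p = 0.0397 by edgeR) or euthyroid replicate 2 (0.0215), and Plxnc1 without euthyroid replicate 3 (0.0181) or hypothyroid replicate 3 (0.0359). Unc5a turned from 0.12 to -0.02 on the log2 scale without euthyroid replicate 2.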

How the results depend on the processing

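Of the 64 tested members, 42 kept their direction and their side of the threshold in every one of the 19 alternatives that tested them, 32 higher, 9 lower (Nrp1, Ntn4, Plxnd1, Robo1, Sema4a, Sema4d, Sema5a, Sema6b and Slit3) and 1 not called. With library sizes alone, all genes gave 8650 higher and 2928 lower calls in place of 5603 and 5064, and 9 members were called lower in place of 17, with 0 in the ephrin and 1 in the netrin system. Limma on FPKM gave 8718 and 3096 calls over all genes and again 9, 0 and 1, and with a pseudocount of 1 it gave 8709 and 3083, and 9, 0 and 1. On TPM 1 netrin system gene was lower. The cause of the differences on FPKM and TPM was not tested. Calls were also gained without a turn of direction, by 7 members with library sizes alone and by 6 with upper quartile factors. Directions turned as follows. With library sizes alone Efnb2 went to 0.02, Epha3 to 0.16, Ephb1 to 0.07, Plxnb1 to 0.25 and Sema3f to 0.17. With upper quartile factors Epha3 went to 0.01, Plxnb1 to 0.10 and Sema3f to 0.02. On FPKM Efnb2 was 0.01, Epha3 0.16, Ephb1 0.06, Plxnb1 0.23 and Sema3f 0.19, and with a pseudocount of 1 they were 0.01, 0.15, 0.03, 0.22 and 0.19. On TPM Epha3 was 0.13, Ephb1 0.03, Plxnb1 0.19 and Sema3f 0.15. Plxnb1 was also 0.00 with the stricter filter (minimum count 50) and 0.00, 0.02 and 0.01 without euthyroid replicate 1, hypothyroid replicate 1 or hypothyroid replicate 3, and Unc5a was -0.02 without euthyroid replicate 2. Over all fits without 1 library, Plxnb1 ranged from -0.05 to 0.02 and Unc5a from -0.02 to 0.18.

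Without 1 library at a time, 618 of 640 member results kept direction and call. The replicate block, from the numbers in the labels, changed no member's call, and 34 members stayed called higher and 17 lower under it. Same-numbered libraries correlated between -0.0774 and 0.108 in their deviations from the group means, and 1 of 5 numbers matched its own partner best, so the numbers were not taken to pair the libraries. Members under about 2 CPM, such as Slit1, Unc5a, Epha6 and Epha10, rest on few counts.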
